A study of Mus musculus with 4 samples.

Results

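The transcription factors Sox9, Sox8, Sox10, Dmrt1, Wt1, Gata4, Nr5a1 and Nr0b1, which act in Sertoli cells and in the supporting cells from which these arise, were followed in whole male mouse gonads from embryonic day (E) 12.5 to E15.5. The genes were listed by name, and their probes were found by the RefSeq accession printed for each array spot. Of the 8 genes, 7 matched a probe, out of 16358 genes that could be named in this way. Sox10 matched none and has no value here. The 7 genes had 11 probes: 3 for Sox9, 2 each for Sox8 and Gata4, and 1 each for Dmrt1, Wt1, Nr5a1 and Nr0b1. All 11 were well above background on all 8 arrays, and none was saturated on any array.

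The tissue was gonads of wild type male embryos of the MCH mouse line, with no treatment, transgene or deletion, collected daily at 4 stages from E12.5 to E15.5. Each stage had 2 arrays, described by the submitters as biological duplicates. The labels do not say how many embryos went into each, so p-values measure only the spread between these duplicates. Total RNA was amplified, labelled with 1 dye (Cy3) and hybridised to whole-genome oligonucleotide arrays. Values are log2 signals relative to the 75th percentile of all non-control spots on the same array. A value of 1 is therefore 2 times that percentile, and a value of -1 is 0.5 of it. A probe was called changed at an adjusted p under 0.05 (limma, Benjamini-Hochberg over 28188 probes).

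Sertoli cells are the somatic cells that enclose the germ cells in testis cords. In the embryo, Sry switches on Sox9, and Sox9 with its relatives Sox8 and Sox10 (the SoxE group) drives and then maintains Sertoli identity. Wt1, Gata4 and Nr5a1 act earlier, in the bipotential gonad that can become testis or ovary, and remain in its somatic cells. Dmrt1 acts in Sertoli cells and in germ cells, and Nr0b1 encodes an orphan nuclear receptor that opposes activation by Nr5a1.

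Reference DNA upstream of the transcription start was matched for 2 of the 8 genes, Sox8 and Nr0b1, and is printed because Sox8 was the gene with a called change, with Nr0b1 for comparison. Each run is the 250 bases just before the start, 5′ to 3′ on the gene's strand, from RefSeq on build GRCm38.p6. The Sox8 run is chr17:25570687-25570936 on the minus strand and the Nr0b1 run is chrX:86191525-86191774 on the plus strand. Capitals mark the motif TATAAA.
Sox8: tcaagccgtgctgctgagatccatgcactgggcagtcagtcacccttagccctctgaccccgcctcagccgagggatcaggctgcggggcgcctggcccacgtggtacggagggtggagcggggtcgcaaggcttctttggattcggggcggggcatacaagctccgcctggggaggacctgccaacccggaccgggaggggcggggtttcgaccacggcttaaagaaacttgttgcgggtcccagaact
Nr0b1: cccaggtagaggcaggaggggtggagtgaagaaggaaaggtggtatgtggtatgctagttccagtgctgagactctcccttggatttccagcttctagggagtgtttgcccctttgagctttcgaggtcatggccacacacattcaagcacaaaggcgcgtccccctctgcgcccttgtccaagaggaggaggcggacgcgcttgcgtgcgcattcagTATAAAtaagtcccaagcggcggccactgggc
The Nr0b1 run held TATAAA from 32 to 27 bases before the start, a match found in 12.4% of 32851 upstream windows of this length. The Sox8 run held no match to any of the 6 motifs searched on both strands. The motif of Sox factors, searched as AACAAT, was found in 9.42% of windows. That of Nr5a1, searched as AAGGTCA, was found in 4.08%. The motif of Gata factors, AGATAA, was found in 9.99% and that of Wt1, GCGGGGGCG, in 2.57% of windows. TATAAA and the CCAAT box, the latter found in 33.8%, made up the rest. The share of G and C was 65.6% in the Sox8 run and 57.2% in the Nr0b1 run, against a median of 52.4% over all windows. A match says only that these letters occur in the window.

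Slide 1 held array 1 of the first 2 stages and slide 2 their array 2, while slide 3 held the 4 arrays of the last 2 stages. The steps from E12.5 to E13.5 and from E14.5 to E15.5 therefore compare stages within slides. In the step between E13.5 and E14.5, and over the whole span to E15.5, slide and stage cannot be told apart. The version of the scanner software also differed between the first 2 and the last 2 stages, so it cannot be told apart from stage there either. The 75th percentile signal ranged from 832 to 1833 over the arrays, and between 60.3% and 69.8% of 41174 probes were well above background. Of the 28 Sertoli cell product genes with a tested probe, 27 were well above background on all 8 arrays. The probe for Sry, whose transcript is brief in the mouse gonad, was well above background on 0 arrays.

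On slide 3 the arrays paired up across stages. E14.5 array 1 and E15.5 array 2 deviated from their stage means together, and against E14.5 array 2 and E15.5 array 1. Over 28188 probes, the deviations of the same-numbered arrays of E14.5 and E15.5 correlated at -0.63, against 0.63 for E12.5 and E13.5. Some summed marker levels differed in the same way, and 1 gene made up most of each sum. The sum over 15 genes of neural crest, glia and neurons was 23.4 and 20.9 times the 75th percentile on E14.5 array 1 and E15.5 array 2, and 15.5 and 15.8 on E14.5 array 2 and E15.5 array 1. Ngfr made up 75.6% to 83.8% of it. The rest kept that order within each stage, with 3.80 and 4.34 against 3.33 and 3.86. The sum over 8 granulosa and ovarian supporting genes was 14.2 and 12.5 against 8.24 and 9.58. Rspo1 made up 72.3% to 89.4% of that, and without it the order turned, with 1.502 and 1.735 against 2.29 and 2.47. The sum over 8 coelomic epithelium genes was 14.1 and 13.5 against 11.3 and 11.4, and without Aldh1a2 3.39 and 3.46 against 3.49 and 4.17. The part of these differences in the factor values was not tested.

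Sox8, a SoxE factor that shares targets with Sox9, was the gene of the group that changed. Its probe A_52_P269672 read -2.49 and -2.73 on arrays 1 and 2 of E12.5, -1.82 and -2.42 at E13.5, -1.44 and -1.16 at E14.5, and -0.70 and -0.71 at E15.5. The arrays of each stage lay wholly above those of the stage before. Sox8 rose from E12.5 to E15.5 by 1.91 on the log2 scale, a fold of 3.75 (SE 0.25 log2, 95% interval 1.31 to 2.51, adjusted p = 0.00236 by limma, n = 2 arrays a stage). Over all 4 stages the same probe passed limma's F test (adjusted p = 0.00738). None of the day-to-day steps passed: the log2 differences were 0.50 to E13.5 (adjusted p = 0.425), 0.81 to E14.5 (adjusted p = 0.0809) and 0.60 to E15.5 (adjusted p = 0.569). Within slides, the first step was 0.68 on slide 1 and 0.32 on slide 2. The gene lies at chr17:25565893-25570686.

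The E14.5 arrays do not enter the difference from E12.5 to E15.5, and the E15.5 arrays of this probe read nearly alike. The rise of Sox8 therefore had to keep its size without either pair of slide 3 arrays. It was 1.91 (adjusted p = 0.0362) without E14.5 array 1 and E15.5 array 2, and 1.91 (adjusted p = 0.0277) without the other pair. The test over all 4 stages missed the threshold without either pair (adjusted p = 0.0803 and 0.0647). With background correction by normexp the difference was 1.36 and missed the threshold (adjusted p = 0.0760), and with 3 spots of extreme local background replaced it was again 1.36, with an adjusted p of 0.00142.

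The other Sox8 probe, A_52_P269667, read -4.14 and -3.48 at E12.5, -2.58 and -3.58 at E13.5, -3.20 and -3.68 at E14.5, and -2.32 and -2.76 at E15.5. Of the later stages, E15.5 was the one whose arrays lay wholly above those of E12.5, with a log2 difference of 1.27 (SE 0.41, 95% interval 0.29 to 2.24, adjusted p = 0.0522 by limma). That value was just outside the threshold, and passed it without either E13.5 array (adjusted p = 0.0344). The first step was 1.56 on slide 1 and -0.10 on slide 2, so the slides gave opposite signs. The position of a probe within its transcript was not used here, for this gene or the others.

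**Figure D1:**
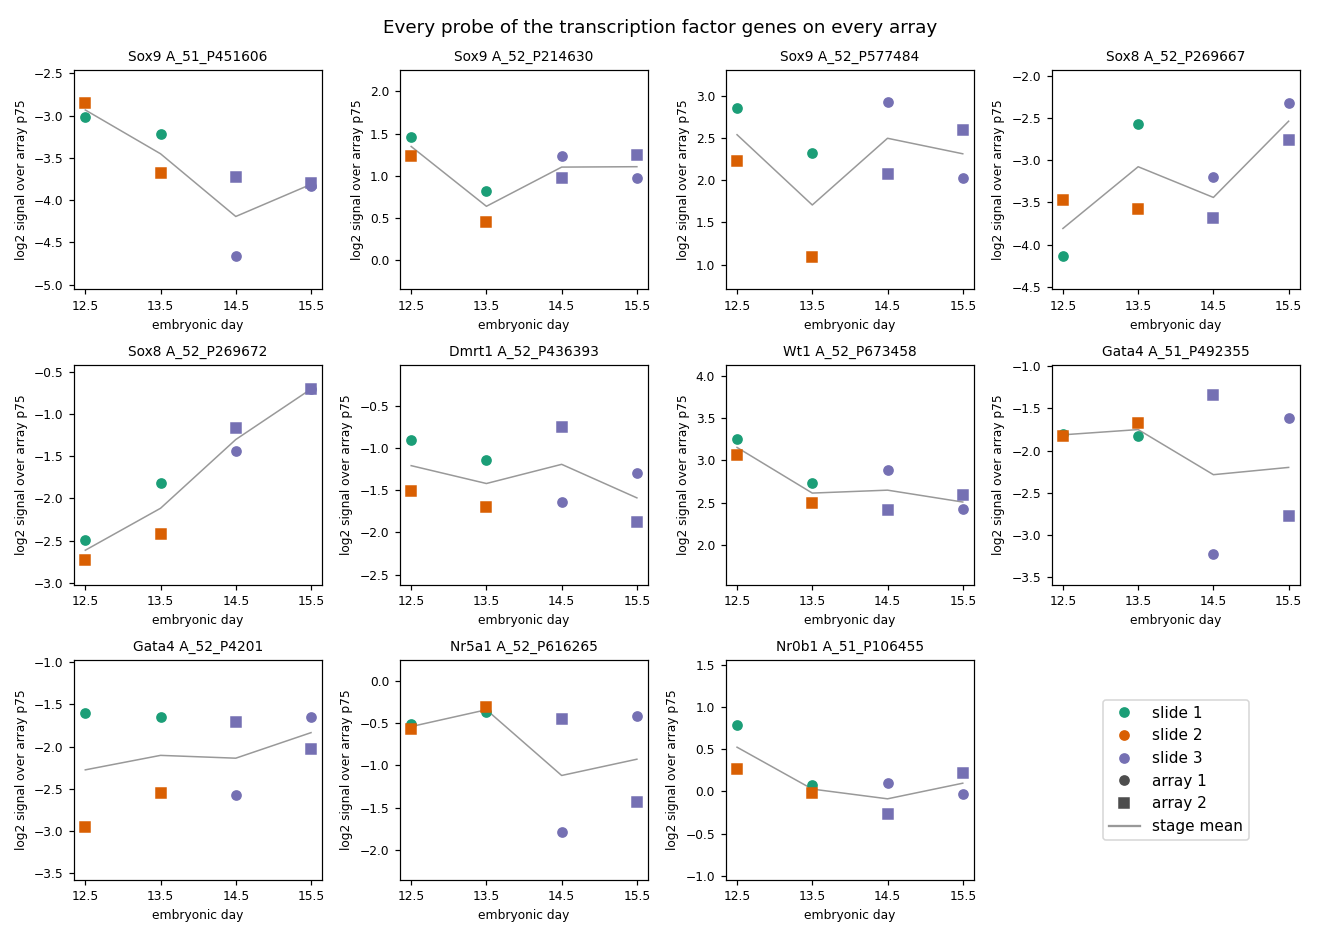
Log2 signal relative to the array's 75th percentile (vertical axis, every panel spanning the same number of log2 units) against embryonic day for the 11 probes of the 7 genes. Points are single arrays, coloured by slide and shaped by array number, and the line joins stage means. Sox8 probe A_52_P269672 climbs from -2.49 and -2.73 at E12.5 to -0.70 and -0.71 at E15.5. The duplicates of Gata4 probe A_51_P492355 and of Nr5a1 lie far apart at E14.5 and E15.5.

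Sox9, the SoxE factor that Sry activates and that Sertoli cells keep for life, gave no called difference on any of its 3 probes. The gene lies at chr11:112782210-112787757. Probe A_52_P214630, present as 10 spots on each array, read 1.46 and 1.24 at E12.5, 0.82 and 0.46 at E13.5, 1.23 and 0.98 at E14.5, and 0.97 and 1.25 at E15.5. The E13.5 arrays were the lowest, below every array of the other stages. The E13.5 minus E12.5 difference was -0.71 (SE 0.22, adjusted p = 0.182 by limma), with -0.63 on slide 1 and -0.78 on slide 2. From E13.5 to E14.5 the difference was 0.46 (adjusted p = 0.205), and from E12.5 to E15.5 it was -0.24 (95% interval -0.78 to 0.30, adjusted p = 0.437). The SD of its 10 spots within an array was 0.06 to 0.09 log2, below the pooled SD of 0.20 between duplicate arrays.

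Sox9 probe A_52_P577484 read 2.85 and 2.23 at E12.5, 2.32 and 1.09 at E13.5, 2.92 and 2.07 at E14.5, and 2.03 and 2.60 at E15.5. Stages overlapped in every comparison of this probe. Its difference from E12.5 to E13.5 was -0.83 (SE 0.50, adjusted p = 0.516), with -0.53 on slide 1 and -1.13 on slide 2. Thus both of these Sox9 probes were lower at E13.5 on both slides, by amounts that the test did not call.

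Sox9 probe A_51_P451606 gave another order. It read -3.02 and -2.85 at E12.5, -3.22 and -3.68 at E13.5, -4.66 and -3.72 at E14.5, and -3.83 and -3.80 at E15.5. All E15.5 arrays lay below all E12.5 arrays, with a difference of -0.88 (SE 0.33, adjusted p = 0.0836 by limma), a call without either E14.5 array (adjusted p = 0.0286). From E13.5 to E14.5 this probe differed by -0.74 where the 10-spot probe differed by 0.46. The E14.5 minus E13.5 difference became a call at -1.21 (adjusted p = 0.0495) without E14.5 array 2. Over the 8 arrays it correlated at 0.11 and -0.11 with the other Sox9 probes, which correlated with each other at 0.89. These are descriptions over 4 stages and 3 slides that all probes share.

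Ratios of Sox8 to Sox9 within arrays mostly restate the called Sox8 rise of 1.91 from E12.5 to E15.5. Sox9 probe A_52_P214630 differed by an uncalled -0.24 over that span, which crosses slides. The log2 ratio of Sox8 probe A_52_P269672 to Sox9 probe A_52_P214630 was -3.95 and -3.97 at E12.5, -2.64 and -2.87 at E13.5, -2.68 and -2.14 at E14.5, and -1.68 and -1.95 at E15.5. The E15.5 arrays were all higher than the E12.5 arrays, and the ratio differed by 2.15 log2 between these stages, a fold of 4.43. With the other Sox8 probe the ratio differed by 1.51. With 2 arrays against 2, the exact two-sided permutation p of each was 0.333, which is the smallest such a design allows. The probes hybridise differently, so only the difference in the ratio between stages can be read.

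Wt1, a zinc finger factor needed for the gonad to form and for Sertoli cells to keep their identity, was read by 1 probe present as 10 spots. The gene lies at chr2:105126529-105173614. The probe read 3.25 and 3.06 at E12.5, 2.73 and 2.50 at E13.5, 2.88 and 2.41 at E14.5, and 2.43 and 2.59 at E15.5. The E12.5 arrays were higher than all others. The difference from E12.5 to E13.5 was -0.54 (SE 0.23, adjusted p = 0.319 by limma), nearly the same on slide 1 (-0.52) and slide 2 (-0.56). Over the whole span to E15.5 it was -0.65 (SE 0.23, 95% interval -1.19 to -0.10, adjusted p = 0.0675), a call without either E14.5 array (adjusted p = 0.0456). The later steps were 0.03 and -0.14. The log2 ratio of Sox8 probe A_52_P269672 to Wt1 was -5.74 and -5.79 at E12.5 and -3.13 and -3.29 at E15.5, a difference of 2.55.

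Nr0b1, whose product Dax1 restrains Nr5a1 and whose dose affects testis formation, lies at chrX:86191775-86195947. Its probe read 0.78 and 0.26 at E12.5, 0.07 and -0.02 at E13.5, 0.09 and -0.27 at E14.5, and -0.03 and 0.22 at E15.5. The E12.5 arrays were the highest of the 8, as for Wt1. The difference from E12.5 to E13.5 was -0.50 (SE 0.25, adjusted p = 0.418 by limma), with -0.71 on slide 1 and -0.28 on slide 2. Across the span to E15.5 it was -0.43 (adjusted p = 0.223). Over the 8 arrays the Nr0b1 and Wt1 probes correlated at 0.86.

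Gata4, a zinc finger factor that acts with Nr5a1 and Wt1 on gonadal promoters such as that of Amh, was read by 2 probes at chr14:63198914-63271712. Probe A_51_P492355 read -1.81 and -1.82 at E12.5, -1.83 and -1.67 at E13.5, -3.22 and -1.35 at E14.5, and -1.62 and -2.78 at E15.5. The duplicates were close on slides 1 and 2 and far apart on slide 3, where E14.5 array 1 and E15.5 array 2 were low. Its pooled duplicate SD of 0.78 was greater than that of 94.1% of probes, whose median was 0.28. The difference from E12.5 to E15.5 was -0.39 (SE 0.63, adjusted p = 0.659 by limma). It was 0.19 without the 2 low arrays, and -0.97, a call at adjusted p = 0.0322, without the other pair, so the sign depended on which arrays of slide 3 were kept.

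The other Gata4 probe, A_52_P4201, spotted 10 times, read -1.60 and -2.95 at E12.5, -1.65 and -2.56 at E13.5, -2.57 and -1.71 at E14.5, and -1.64 and -2.03 at E15.5. Here the slide 2 arrays were low as well as E14.5 array 1. The 10 spots had an SD of 0.51 on E12.5 array 2 and 0.34 on E13.5 array 2, against 0.05 to 0.26 on the other arrays. Its difference from E12.5 to E15.5 was 0.44 (SE 0.54, adjusted p = 0.554), opposite in sign to the first probe. The Gata4 probes correlated at 0.34 over the 8 arrays.

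Nr5a1, the nuclear receptor Sf1 that drives steroid genes in Leydig cells and Amh in Sertoli cells, lies at chr2:38692656-38714542. Its probe read -0.51 and -0.57 at E12.5, -0.37 and -0.31 at E13.5, -1.79 and -0.45 at E14.5, and -0.42 and -1.43 at E15.5. The first 4 arrays were close together, and E14.5 array 1 and E15.5 array 2 were low, as for Gata4 probe A_51_P492355. The E13.5 arrays lay above the E12.5 arrays by 0.20 (adjusted p = 0.938 by limma), and the E14.5 arrays below the E13.5 arrays by a difference of -0.78 (adjusted p = 0.312). From E12.5 to E15.5 the difference was -0.39 (SE 0.49, adjusted p = 0.568), 0.12 without the 2 low arrays, and -0.89 without the other pair, a call at adjusted p = 0.0332. Without that other pair, E14.5 against E13.5 also became a call for both genes, at -1.45 for Nr5a1 and -1.47 for Gata4 A_51_P492355 (adjusted p = 0.0405 each). The Nr5a1 and Gata4 A_51_P492355 probes correlated at 0.97 over the 8 arrays, which share slides and depth.

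**Figure D2:**
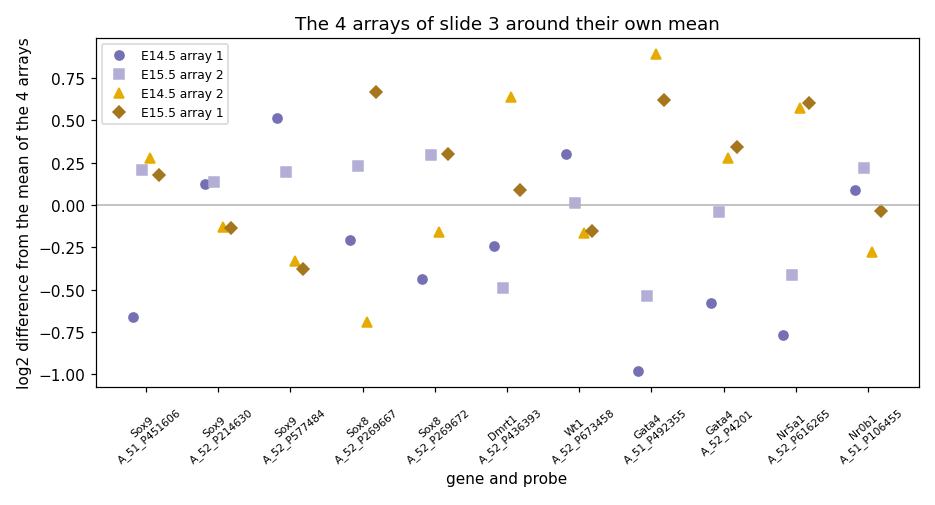
Deviation of each slide 3 array from the mean of the 4 arrays of that slide (vertical axis, log2) for the 11 probes (horizontal axis). Each symbol is 1 array. E14.5 array 1 and E15.5 array 2 lie together below 0 for Gata4 A_51_P492355 and A_52_P4201, Nr5a1 and Dmrt1. They lie together above 0 for Sox9 A_52_P577484 and A_52_P214630, Nr0b1 and, narrowly on E15.5 array 2, Wt1.

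Dmrt1, a DM domain factor that keeps Sertoli cells male and also acts in germ cells, lies at chr19:25505618-25604328. Its probe read -0.91 and -1.51 at E12.5, -1.15 and -1.69 at E13.5, -1.63 and -0.75 at E14.5, and -1.30 and -1.88 at E15.5. Stages overlapped in all 4 comparisons. The differences were -0.21, 0.23 and -0.40 for the daily steps and -0.38 (SE 0.40, 95% interval -1.33 to 0.57, adjusted p = 0.487 by limma) from E12.5 to E15.5.

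Counted together, 0 of the 11 probes passed in E13.5 against E12.5, where 3.29% of all 28188 probes passed. In E14.5 against E13.5 it was 0 of 11, against 12.5% of all probes, and in E15.5 against E14.5 it was 0 of 11, against 0.575%. From E12.5 to E15.5 the Sox8 probe passed, 1 of 11, against 34.2% of all probes, of which 17.2% were higher. Over all stages the same probe passed, 1 of 11, against 29.9%. At an unadjusted limma p under 0.05 the counts were 1, 1 and 0 for the daily steps, against 15.7%, 32% and 8.88% of all probes. Over the whole span 4 of the 11 had such a p, against 46.1% of all probes.

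The arrays of the compared stages did not overlap for 6 of the 11 probes in E13.5 against E12.5 (2 higher and 4 lower), where 50.6% of all probes did not overlap, 23.7% higher and 26.9% lower. They did not overlap for 4 probes in E14.5 against E13.5 (2 higher and 2 lower; all probes 60%, with 29.7% higher and 30.3% lower) and for 2 in E15.5 against E14.5 (both Sox8, both higher; all probes 35.1%, with 17.5% higher and 17.6% lower). Over the whole span it was 5 probes (the 2 of Sox8 higher; 1 of Sox9, Wt1 and Nr0b1 lower), against 73.7% of all probes, 34.8% higher and 38.9% lower. The median difference of the 11 probes from E12.5 to E15.5 was -0.38, against -0.06 over all probes. The daily medians were -0.21, -0.03 and 0.18, against -0.04, -0.02 and -0.01.

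**Figure D3:**
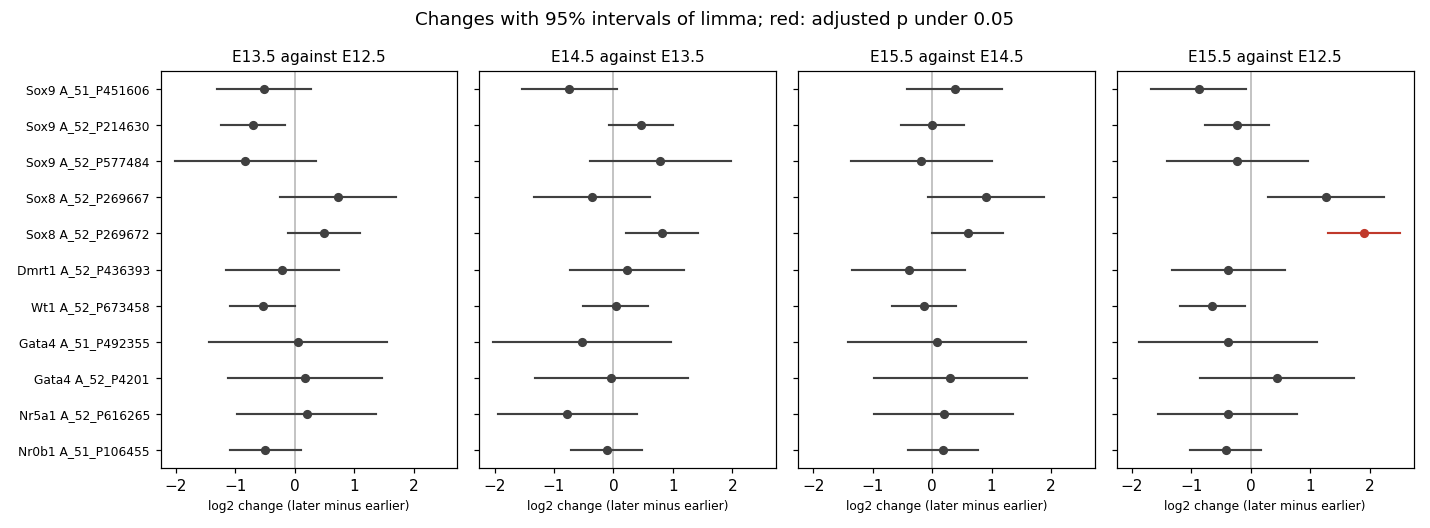
Log2 change (later minus earlier stage, horizontal axis) of each of the 11 probes in the 4 comparisons, with 95% intervals from limma. The Sox8 probe A_52_P269672 at 1.91 from E12.5 to E15.5 is the one with an adjusted p under 0.05, and the Gata4 and Nr5a1 intervals are among the widest.

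The authors' deposited table gives 1 ratio per probe and stage. For Sox8 A_52_P269672 the authors' deposited table lists 0.611, 0.782, 1.42 and 1.82 from E12.5 to E15.5, a log2 difference of 1.57. For Wt1 the authors' deposited table gives a log2 difference of -0.98 over the same span, and for Sox9 A_52_P214630 -0.58. The median probe of that table differs by -0.40 between these stages, so its values lie lower than those from the scanner signals. Less the median of all probes, the Sox8 difference is 1.97 in the authors' deposited table and 1.97 in the scanner signals.

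Other transcription regulators of the gonad were read with 1 probe a gene. Of 28 tested, 4 rose and 11 fell from E12.5 to E15.5, with a median of -0.50 against 0.01 over all genes, of which 19.6% rose and 15.2% fell. With array median scaling 2 rose, where 16.4% of all genes rose. With normexp 0 rose and 3 fell, where 3.06% of all genes rose and 2.53% fell. Sox4, a SoxC factor that opposes Sox9 in the early gonad, fell by 2.58 on the log2 scale (SE 0.52, adjusted p = 0.0110 by limma). Pax2, a factor of the nephric duct, was at least 2.36-fold lower (adjusted p = 0.000307) and Foxl2, an ovarian factor, at least 2.50-fold lower (adjusted p = 0.0423), both not well above background at E15.5. Among the risers were Pax8 (at least 2.98-fold, adjusted p = 0.0289), Mro (0.93, adjusted p = 0.0187) and Lhx2 (0.76, adjusted p = 0.0379). In the steps within slides 0 of the 28 passed, against 3.71% of all genes from E12.5 to E13.5 and 0.675% from E14.5 to E15.5.

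Among other Sox genes, which share the DNA-binding HMG box with Sox8 and Sox9, 0 of 12 rose and 7 fell from E12.5 to E15.5, with a median of -1.19. Sox2, a pluripotency factor of germ cells, fell by 5.61 (SE 0.31, adjusted p = 0.000146 by limma), and Sox15 fell by 2.20 (adjusted p = 0.000638). Sox4 is the other of the 3 steepest falls. Sox2 also fell by 2.77 from E14.5 to E15.5 within slide 3 (adjusted p = 0.0248). Over all 13475 genes tested with 1 probe each, 19.6% rose and 15.2% fell. The same 7 genes fell, and 0 rose, with array median scaling and with quantile scaling. Of all genes, 14.8% fell and 16.4% rose with median scaling, and 15.5% fell and 21.7% rose with quantile scaling. With normexp 4 of them fell and 0 rose, where 2.53% of all genes fell and 3.06% rose. After replacing extreme background 9 fell, these 7 among them, and 0 rose, where 22% of all genes fell and 18% rose. Sox8 was thus the 1 gene of 14 Sox genes tested that rose, and Sox9 gave no call.

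**Figure D4:**
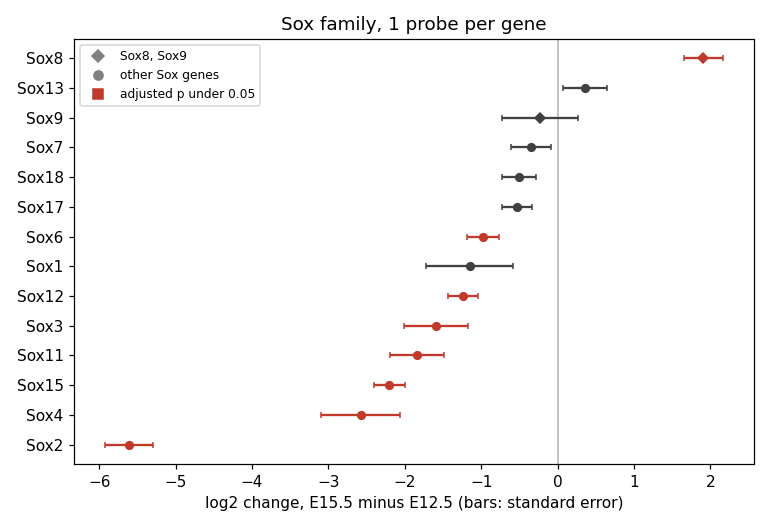
Log2 change from E12.5 to E15.5 (horizontal axis) of 14 Sox genes, 1 probe per gene (for Sox9, A_52_P577484), with standard errors from limma. Red marks an adjusted p under 0.05. Sox8 is the red point to the right of 0, at 1.91, and the 7 red points to the left run to -5.61 for Sox2.

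Of 6 other Dmrt genes, Dmrtc2 rose by 2.48 (SE 0.20, adjusted p = 0.000391 by limma) and Dmrt3 fell by 1.51 (adjusted p = 0.0195) from E12.5 to E15.5. Over all genes, 34.8% were called in that span, 19.6% higher and 15.2% lower. Dmrtc2 also rose from E12.5 to E13.5, by 1.68 (adjusted p = 0.00969). Of 7 other Gata genes and cofactors, 0 rose and 2 fell. These were Zfpm2, the Gata4 cofactor Fog2 (fell by 1.33, SE 0.22, adjusted p = 0.00529), and Gata6 (fell by 0.89, adjusted p = 0.0138). Gata4 itself was not called on either probe.

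Products of Sertoli cells that lie downstream of these factors split in direction. Of 28 tested, 8 rose and 5 fell from E12.5 to E15.5, with a median of 0.01, where 34.8% of all genes were called. With normexp 4 rose and 3 fell, where 3.06% of all genes rose and 2.53% fell. Hsd17b1, an enzyme that interconverts sex steroids, rose by 4.61 (SE 0.18, adjusted p = 6.9e-05 by limma), Sostdc1, a secreted antagonist of BMP and Wnt signals, by 2.50 (adjusted p = 0.00114), and Fshr, the receptor for follicle-stimulating hormone, by 2.35 (adjusted p = 0.00172). Fgf9, the growth factor that sustains Sox9 in the early testis, fell by 2.43 (adjusted p = 0.000321). Rhox5, a homeobox gene, fell by 2.09 (adjusted p = 0.00363), and Cyp26b1, which degrades retinoic acid, by 1.77 (adjusted p = 0.000832).

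From E12.5 to E13.5, within slides, Hsd17b1 rose by 1.96 (adjusted p = 0.00436 by limma), Inha rose by 1.71 (adjusted p = 0.0355) and Fgf9 fell by 1.35 (adjusted p = 0.0152). From E14.5 to E15.5, 0 of the 28 Sertoli products passed, against 0.675% of all genes. The 3 calls among 28 products and 0 among 7 factor genes in the first step stand beside 3.71% of all genes, so the factor count is near the background.

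In whole gonads, fewer cells of a type and less RNA per cell cannot be told apart. Genes of other cell types were called over the same span, in which 34.8% of all genes were called, 19.6% higher and 15.2% lower. Of 13 genes of fetal Leydig cells and steroidogenesis, 12 rose and 1 fell from E12.5 to E15.5 (median 2.49), and their summed level went from 54.0 and 43.9 times the 75th percentile at E12.5 to 215 and 184 at E15.5. Of 12 germ cell genes 3 rose and 6 fell, and of 7 erythroid genes 1 rose and 5 fell. Of 10 mesonephros and nephric duct genes 1 rose and 5 fell, of 8 endothelial genes 0 rose and 2 fell, and of 8 granulosa and ovarian supporting genes 0 rose and 3 fell. Coelomic epithelium gave 2 rises and 2 falls of 8, and macrophages 1 and 1 of 6.

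SoxE genes are also known in neural crest, glia and cartilage. From E12.5 to E15.5, 19.6% of all genes rose and 15.2% fell. Of 15 tested genes of neural crest, glia and neurons, 1 rose and 3 fell. The number that fell was 0 with normexp, where 2.53% of all genes fell, and 8 with normexp after replacing extreme background, where 22% fell. Without Ngfr, which dominated the sum, the summed level was 3.52 and 3.31 at E12.5 and 3.86 and 4.34 at E15.5. Among those that fell, Erbb3 was at least 1.83-fold lower and Foxd3 at least 1.98-fold lower. Of 7 cartilage genes 2 rose and 1 fell: Col11a2 rose by 1.71, Col2a1 by 0.96, and Col9a1 fell by 3.42. The summed cartilage level was 5.06 and 5.34 at E12.5 and 7.71 and 8.73 at E15.5, of which Col2a1 made up 67.9% to 87.4% over the 8 arrays. Without Col2a1 it was 1.62 and 1.51 at E12.5 and 1.16 and 1.10 at E15.5. The part of these cell types in the Sox8 rise was not tested.

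The genes whose pattern over the 8 arrays was most like that of each factor, by Pearson's r among 13474 other genes, were the following. For Sox8 A_52_P269672 they were Oas1a (r = 0.995), Abcc8 (0.991) and Hectd2 (0.991), and 968 genes exceeded an r of 0.9. For Sox9 A_52_P577484 they were Fgd5 (0.986), Tjp1 (0.976) and Toe1 (0.974), with 28 genes above 0.9. For Wt1 they were Ung (0.984), Suz12 (0.982) and Rrm1 (0.981), with 112 genes above 0.9. For Nr5a1 they were Lrsam1 (0.998), Arfgap1 (0.995) and Mmp2 (0.994), with 314 above 0.9, and for Gata4 A_51_P492355 they were Fzd8 (0.994), Pkdcc (0.994) and Tfe3 (0.990), with 199. For Dmrt1 they were Chmp3 (0.963), Kcns2 (0.945) and Aldh18a1 (0.943), and for Nr0b1 Pnlip (0.938), Hirip3 (0.935) and Stk17b (0.930), with 20 genes above 0.9 for each. Sox8, a probe that climbs with stage, had many genes of like pattern, and Dmrt1 and Nr0b1 few. All genes share the same 8 arrays, slides and stages, so these values describe likeness and carry no test.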

How the data were processed

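Genes and lists were chosen with earlier results of these data known. Per the file headers, Agilent Feature Extraction 9.1.3.1 (E12.5, E13.5) or 9.5.3.1 (E14.5, E15.5) made the deposited intensity of each spot (processed signal), and the submitters' processing notes name version 9.5. The authors' deposited table holds 1 ratio per probe and stage; its reference is not given in the sources used here, its direction followed the scanner signals (r of 0.997 to 0.999 between changes over probes), and it was used for direction. Control and outlier spots were left out, spots of a probe averaged, signals divided by the array's 75th percentile and log2 taken. Kept were 28188 of 41174 probes, those that the scanner software marked as well above background in both duplicates of 1 stage or more. Array probes carry old accessions: 22951 had 1 gene symbol through RefSeq (GRCm38.p6) and 18223 none. The limma 3.58.1 fit (R 4.3.3, lmFit and eBayes, 1 mean per stage, 4 residual degrees of freedom) shared its spread over all 8 arrays, with two-sided p adjusted by Benjamini-Hochberg. It was tested on simulated data.

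Named were all factor probes, up to 3 called rises and 3 called falls per list from E12.5 to E15.5 (1 probe per gene, the one of highest mean), called regulators and Sertoli products in the steps within slides, and 3 genes of most alike pattern. Where neither duplicate of a stage was well above background, the fold is a lower bound, with the dim group set at the lowest signal well above background or its own if higher. The normexp alternative used each spot's median signal in place of the planned mean signal. Alternatives were other backgrounds, scalings, filters, blocks and left-out arrays. A result for 1 gene of the marker lists is not reported here.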

Additional observations from a re-analysis of the deposited data

How the results depend on the processing

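The rise of Sox8 A_52_P269672 from E12.5 to E15.5 kept its direction under every alternative run and its call under all but normexp (1.36, adjusted p = 0.0760 by limma), and left-out arrays gave 1.79 to 2.03. Slide as a random block left it called (adjusted p = 0.00264 by limma). The correlation within slides used there, 0.06, was estimated around the stage means. That block therefore could not take out a slide difference that goes with stage. Slide as a fixed term could not be fitted beside stage across slides. Array number as a replicate block gave 1.91 (adjusted p = 0.00552) and changed no call of these probes. The numbers do not pair the arrays on slide 3, where pairing E14.5 array 1 with E15.5 array 2, chosen after seeing the data, called 1260 of all probes and 0 of the 11. Also chosen after seeing the data were the random block, the pairs of slide 3 arrays left out and normexp with extreme background replaced.

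From E12.5 to E15.5 the count of factor probes called was 0 with normexp, where 4.64% of all probes were called. It was 2 with array median scaling (31.8% of all probes), with quantile scaling (36.6%) and when probes had to be above background on every array (34%). It was 3 with an intensity trend (36.1%), with the compared arrays alone (31.6%) and with normexp after replacing extreme background (41.4%). Over all stages it was 0 with normexp (2.11%) and 2 with the replacement (38.2%). Counts with arrays left out, which leave 1 array in a stage, are not given. Sox8 A_52_P269667 joined at 1.20 (adjusted p = 0.0486) with median scaling, and Wt1 at -0.65 (adjusted p = 0.0405) with the intensity trend.

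Signs turned for some uncalled differences, and the cause was not tested. With normexp, Sox9 A_51_P451606 turned from -0.52 to 0.58 and Dmrt1 from -0.21 to 0.13 between E12.5 and E13.5. Between E13.5 and E14.5, Dmrt1 turned from 0.23 to -0.16. Sox8 A_52_P269672, whose largest daily step this was, turned from 0.81 to -0.0782. From E14.5 to E15.5, median scaling gave -0.14 for Sox9 A_52_P214630 and -0.0620 for Gata4 A_51_P492355, which was -0.0004 with quantile scaling. The authors' deposited table gave -0.0807 for Gata4 A_51_P492355 from E12.5 to E13.5 and 0.0155 for Gata4 A_52_P4201 from E13.5 to E14.5. From E14.5 to E15.5 it gave -0.24 for Sox9 A_52_P214630, -0.16 for Gata4 A_51_P492355, -0.0502 for Nr5a1 and -0.0580 for Nr0b1.

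With arrays left out, the range from E12.5 to E13.5 was -0.51 to 0.0864 for Dmrt1, -0.0180 to 0.14 for Gata4 A_51_P492355 and -0.51 to 0.85 for Gata4 A_52_P4201. From E13.5 to E14.5 it was -0.21 to 0.67 for Dmrt1, -1.47 to 0.40 for Gata4 A_51_P492355, -0.48 to 0.42 for Gata4 A_52_P4201, -0.30 to 0.0683 for Nr0b1, -0.86 to 0.14 for Sox8 A_52_P269667 and -0.20 to 0.27 for Wt1. From E14.5 to E15.5 it was -0.84 to 0.0440 for Dmrt1, -0.85 to 1.02 for Gata4 A_51_P492355, -0.13 to 0.73 for Gata4 A_52_P4201, -0.48 to 0.86 for Nr5a1, -0.11 to 0.87 for Sox9 A_51_P451606, -0.13 to 0.14 for Sox9 A_52_P214630, -0.61 to 0.24 for Sox9 A_52_P577484 and -0.37 to 0.0930 for Wt1. From E12.5 to E15.5 it was -0.97 to 0.19 for Gata4 A_51_P492355, -0.24 to 1.12 for Gata4 A_52_P4201, -0.89 to 0.12 for Nr5a1 and -0.54 to 0.0876 for Sox9 A_52_P577484. With 2 arrays a stage, and 1 where an array was left out (assumed to vary like the others), the number of arrays limits the precision.

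The median of all probes from E12.5 to E15.5 shifted by -0.13 with array median scaling, -0.18 with normexp and -0.40 in the authors' deposited table, against -0.06. From E13.5 to E14.5 it was -0.49 with normexp, and -0.16 after replacing extreme background. With plain normexp 5.59% of all genes were called from E12.5 to E15.5, against 34.8%, and most gene lists had fewer calls; for fetal Leydig genes it was 8 rises and 0 falls of 13.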
